A study of Mus musculus with 8 samples.

Results

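Of the 24421 genes in the count table, 48 genes of the cell cycle and of mitosis were taken by their symbols, and their counts were followed in the 4 groups of the study. All 48 genes passed the filter on low counts, together with 12254 genes in all, and 47 of the 48 had at least 10 counts on average. The cells were bone marrow neutrophils of 8-week-old female C57BL/6 mice, isolated magnetically. The mice were wild type (WT) or Padi4 KO, in which exon 1 of Padi4 is deleted. Padi4 encodes peptidylarginine deiminase 4, an enzyme that converts arginine in histones and other proteins to citrulline. The cells were unstimulated or were given R848, a small molecule agonist of TLR7, at 1 µg/ml for 6 h. Each of the 4 groups held 2 libraries. The labels give 0 h for the unstimulated libraries whereas the methods describe 6 h, so the R848 response and the time in culture cannot be told apart if the labels hold.

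Cells that will divide first load the Mcm2 to Mcm7 helicase onto DNA, with the help of Cdc6 and Cdt1, and make deoxynucleotides. The E2F transcription factors switch on many of these genes before DNA replication. The genes of mitosis, among them Plk1, the Aurora kinases and the B-type cyclins, come on later, in part through elements named CCAAT and CHR (cell cycle genes homology region) near their start sites. Neutrophils are made in the bone marrow from dividing myeloid precursors, and the mature cell no longer divides.

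Padi4 had 590 and 527 counts in unstimulated WT, 166 and 234 in WT after R848, 40 and 54 in unstimulated Padi4 KO, and 34 and 21 in Padi4 KO after R848. Every Padi4 KO library was below every WT library, as the labels have it, although reads from the exons that remain can still be counted. Library totals ran from 562446 to 1177972 counts on genes and were 1.66 times higher on average in Padi4 KO than in WT. A floor of 3 counts corresponded to between 2.55 and 5.33 CPM, which are counts scaled to the depth of their library. Duplicate libraries differed somewhat more than by counting noise, with chi-square values per degree of freedom between 1.055 and 1.668. Because nothing says that duplicates came from separate mice, the p-values measure only the spread between these libraries, which may be technical. The 9 mature neutrophil markers had the highest sum of the marker lists in every library, with 104842 and 100150 CPM, taken here per library total, in unstimulated WT, 107989 and 92975 CPM in WT after R848, 84304 and 82437 CPM in unstimulated Padi4 KO and 79350 and 77747 CPM in Padi4 KO after R848, lower in Padi4 KO without overlap in both conditions.

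The summed levels of the other marker lists were compared between the groups. The summed level of 15 erythroid genes was 158 and 132 CPM in unstimulated WT, 63.9 and 32.9 CPM in WT after R848, 1491 and 1441 CPM in unstimulated Padi4 KO, and 1625 and 1686 CPM in Padi4 KO after R848. Among them Klf1, the erythroid transcription factor, had 6.24 and 7.11 CPM in unstimulated WT and 78.2 and 79.8 CPM in unstimulated Padi4 KO. Hba-a1, Hba-a2, Hbb-bs and Hbb-bt were at 0 in all libraries. The 10 monocyte genes summed to a mean of 1069 CPM in unstimulated WT, 1005 CPM in WT after R848, 2402 CPM in unstimulated Padi4 KO and 1550 CPM in Padi4 KO after R848. Csf1r carried much of this sum after R848, and without it the means were 922, 227, 2179 and 504 CPM in the same order. The 12 immature neutrophil genes had means of 73976, 70853, 56910 and 53903 CPM in that order, or 62520, 44827, 47494 and 31148 CPM without Lcn2. In WT after R848, 10 of the 12 were lower without overlap, among them Mpo, which went from 604 and 562 CPM to 98.3 and 120 CPM, and Elane, which went from 290 and 288 CPM to 78.7 and 95.7 CPM. In Padi4 KO after R848, 10 of the 12 were lower without overlap as well. There Mpo went from 388 and 401 CPM to 39.9 and 52.9 CPM, and Elane from 208 and 189 CPM to 49.2 and 39.7 CPM. Without overlap, 1 of the 12 was higher after R848 in WT and 2 in Padi4 KO. Of all genes tested, 31.3% were lower without overlap after R848 in WT and 31.7% in Padi4 KO. In Padi4 KO against WT, 10 of the 12 were lower and Ms4a3 higher without overlap in unstimulated cells, and 12 were lower after R848. The 7 progenitor genes summed to means of 50.6, 25.0, 40.3 and 13.8 CPM in that order. The 5 megakaryocyte genes had means of 92.0, 14.9, 185 and 37.7 CPM, the 12 B or plasma cell genes 103, 52.0, 183 and 119 CPM, and the 10 stromal or endothelial genes 277, 137, 685 and 95.5 CPM. Without Vcam1 the stromal or endothelial means were 233, 37.6, 668 and 49.3 CPM, so that the direction between the genotypes after R848 turned. Jchain carried the B or plasma cell sum and Kit the progenitor sum. The 8 T or NK cell genes, of which Cd3e, Cd8a and Gzma were at 0, had means of 36.3, 10.9, 19.5 and 6.97 CPM, and the 8 eosinophil or basophil genes 57.9, 32.7, 41.6 and 23.7 CPM. These means were lower in Padi4 KO in both conditions, although the unstimulated libraries overlapped for the eosinophil or basophil genes. Without Nkg7 the T or NK cell means after R848 were 3.13 CPM in WT and 3.07 CPM in Padi4 KO. These values accompany every R848 response and every difference between Padi4 KO and WT given here, and their part in it was not tested. In bulk libraries, fewer cells of a type and less RNA per cell cannot be told apart.

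The 48 genes summed to 3959 and 4221 CPM in unstimulated WT, 2548 and 2406 CPM in WT after R848, 5565 and 5442 CPM in unstimulated Padi4 KO and 4713 and 4582 CPM in Padi4 KO after R848, where CPM here and for each gene were scaled with TMM factors, which adjust each library for its composition. The groups did not overlap. After R848, 19 of the 48 genes fell in WT, where 10.8% of all genes tested were called lower, and 0 passed the threshold in Padi4 KO, where 8.84% were called lower. In Padi4 KO against WT, 25 genes were higher without stimulation, beside 9.55% of all genes, and 37 after R848, beside 9.46%. The median log2 fold change of Padi4 KO against WT after R848 was 2.50 for the licensing and replication genes, 2.44 for the nucleotide genes and 0.78 for 20 genes of G2 and mitosis. These medians are a description, and the difference between roles was not tested. The plot of all 48 genes orders them by role.

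**Figure D1:**
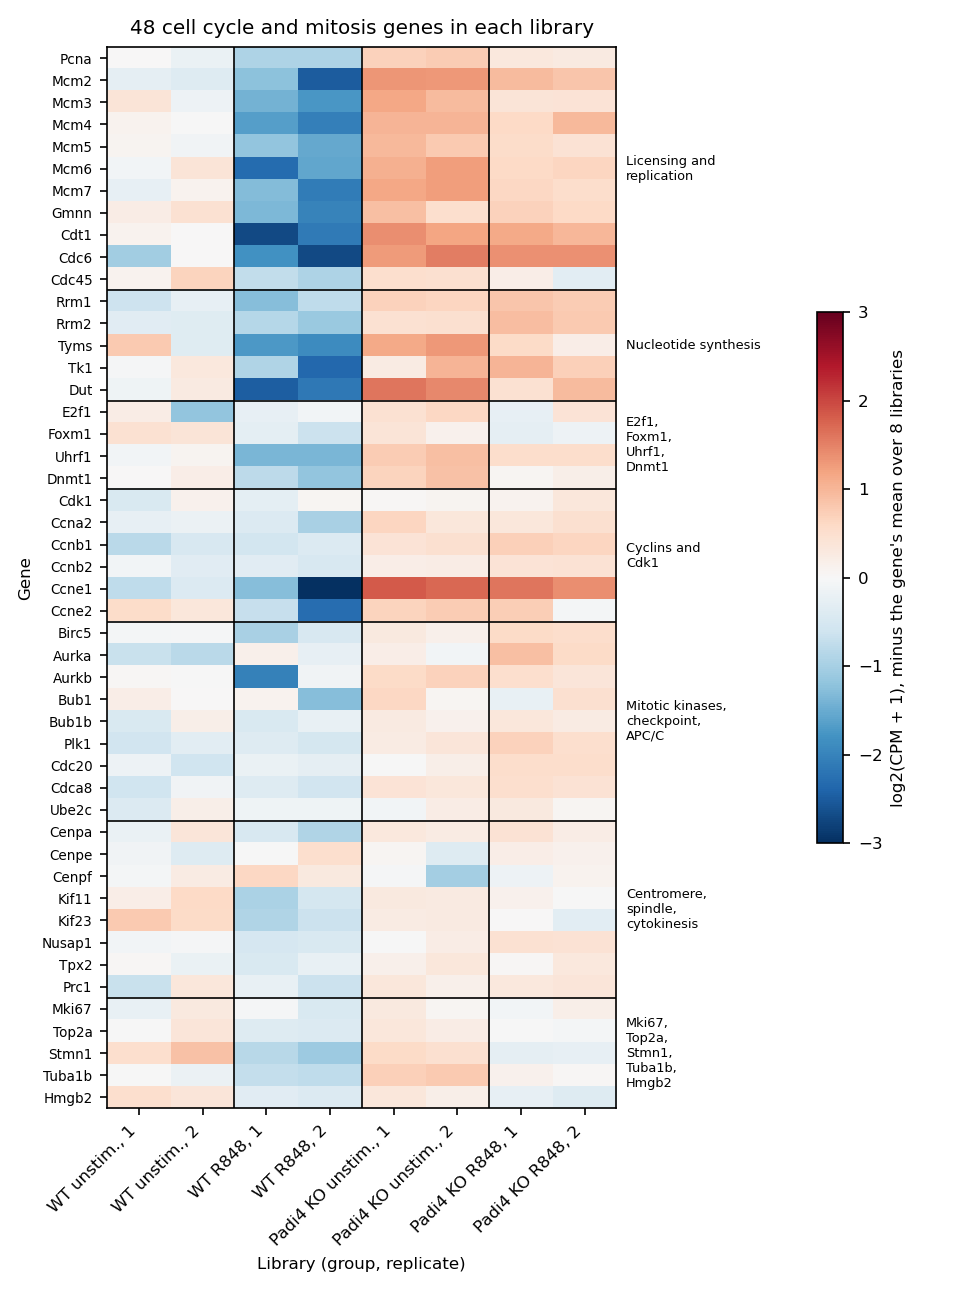
Heat map of the 48 genes (rows, grouped by role) in the 8 libraries (columns). Colour gives log2(CPM + 1) minus the gene's mean over the 8 libraries, with colours ending at 3 in either direction. The blue block of the licensing and nucleotide genes is in the 2 WT libraries given R848, and the red block is in the Padi4 KO libraries.

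The licensing and replication group held 11 genes. Mcm6, a subunit of the replicative helicase on chromosome 1 (mm10, 128331590 to 128359664), had 71.1 and 98.4 CPM in unstimulated WT, 14.3 and 24.8 CPM in WT after R848, 158 and 181 CPM in unstimulated Padi4 KO and 115 and 118 CPM in Padi4 KO after R848. Mcm5, another subunit (chromosome 8, 75109569 to 75128439), had 98.9 and 86.3 CPM in unstimulated WT, 40.8 and 31.9 CPM in WT after R848, 185 and 163 CPM in unstimulated Padi4 KO and 138 and 126 CPM in Padi4 KO after R848. In both genes each of the WT libraries given R848 was below every other library, and each Padi4 KO library was above every WT library. Mcm7 had 60.3 and 77.7 CPM in unstimulated WT, 28.5 and 15.9 CPM in WT after R848, 162 and 173 CPM in unstimulated Padi4 KO and 111 and 104 CPM in Padi4 KO after R848. Pcna, the sliding clamp of the DNA polymerases, had 98.9 and 84.6 CPM in unstimulated WT, 51.0 and 51.3 CPM in WT after R848, 159 and 165 CPM in unstimulated Padi4 KO and 122 and 119 CPM in Padi4 KO after R848. The 4 groups did not overlap for Mcm7 or Pcna, and WT after R848 was lowest in each.

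In WT, 10 of the 11 licensing and replication genes fell after R848, with a median log2 fold change of -1.77 over the group. The threshold for a response was a change of over 2-fold with a false discovery rate under 0.1. Of all genes tested, 10.8% were called lower and 7.17% higher in this contrast, against 39.6% of the 48 genes lower and 0 higher. Mcm6 fell with a log2 fold change of -2.07 (SE 0.31, edgeR adjusted p = 2.11e-10), Mcm4 of -1.98 (SE 0.39, edgeR adjusted p = 4.5e-06) and Mcm3 of -1.77 (SE 0.34, edgeR adjusted p = 1.61e-06). Mcm7 fell with -1.65 (SE 0.31, edgeR adjusted p = 1.77e-06) and Mcm5 with -1.36 (SE 0.26, edgeR adjusted p = 1.49e-06). The 6 Mcm genes fell in WT, but the call of Mcm2 was lost without the second WT library given R848, at -0.84 (edgeR adjusted p = 0.203). Pcna, the gene of the group that was not called, passed the false discovery rate but not the fold threshold at -0.85 (SE 0.24, edgeR adjusted p = 0.00245). Cdc6 was not called by DESeq2 (-2.04, adjusted p = 0.188), nor by edgeR without the second unstimulated WT library (-1.40, edgeR adjusted p = 0.399), and Cdc45 was not called without that same library (-0.96, edgeR adjusted p = 0.114). Of the 19 calls in WT, 11 held under every refit. The median over the 48 genes was -0.77, beside -0.17 over all genes tested.

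Several genes of this group were near the floor in WT after R848. Cdt1, which loads the helicase, had 13 and 11 counts in unstimulated WT, 1 and 2 in WT after R848, 45 and 60 in unstimulated Padi4 KO and 48 and 42 in Padi4 KO after R848. Cdc6, its partner, had 5 and 10, 2 and 1, 38 and 70, and 51 and 50 counts in the same order. Gmnn, which encodes geminin, the inhibitor of Cdt1, had 13 and 14, 3 and 2, 29 and 34, and 32 and 29 counts. In these 3 genes both WT libraries given R848 held 3 counts or fewer, below all other libraries. The ratio of scaled counts in Padi4 KO to WT after R848 was 14.3 for Cdt1 (95% exact counting interval 4.74 to 70.7), 16.1 for Cdc6 (5.34 to 79.1) and 5.82 for Gmnn (2.36 to 18.6). These intervals cover counting error only.

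Among nucleotide genes, Rrm1 and Rrm2 encode the subunits of ribonucleotide reductase. Rrm1 had 85.0 and 111 CPM in unstimulated WT, 53.0 and 76.1 CPM in WT after R848, 211 and 203 CPM in unstimulated Padi4 KO and 233 and 221 CPM in Padi4 KO after R848. Rrm2 had 88.1 and 86.3 CPM in unstimulated WT, 61.1 and 51.3 CPM in WT after R848, 154 and 155 CPM in unstimulated Padi4 KO and 212 and 194 CPM in Padi4 KO after R848. Both were lowest in WT after R848 and highest in Padi4 KO after R848, with no overlap between groups. Tk1, thymidine kinase, had 30.9 and 39.7 CPM in unstimulated WT, 16.3 and 5.31 CPM in WT after R848, 37.3 and 64.6 CPM in unstimulated Padi4 KO and 64.9 and 52.4 CPM in Padi4 KO after R848. Dut, which removes dUTP, had 24.7 and 32.8 CPM in unstimulated WT, 4.08 and 5.31 CPM in WT after R848, 83.7 and 75.5 CPM in unstimulated Padi4 KO and 37.3 and 53.3 CPM in Padi4 KO after R848. For Tk1 the Padi4 KO libraries overlapped the WT ones without stimulation and stood above them after R848. In WT, 3 of the 5 nucleotide genes fell, namely Dut with -2.55 (SE 0.56, edgeR adjusted p = 4.92e-05), Tk1 with -1.74 (SE 0.44, edgeR adjusted p = 0.000648) and Tyms with -2.38 (SE 0.65, edgeR adjusted p = 0.00168). Tyms, thymidylate synthase, had 18 and 7 counts in unstimulated WT and 2 and 2 after R848. The call of Tyms was lost without the first unstimulated WT library (-1.64, edgeR adjusted p = 0.207) and that of Tk1 without the second WT library given R848 (edgeR adjusted p = 0.18).

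**Figure D2:**
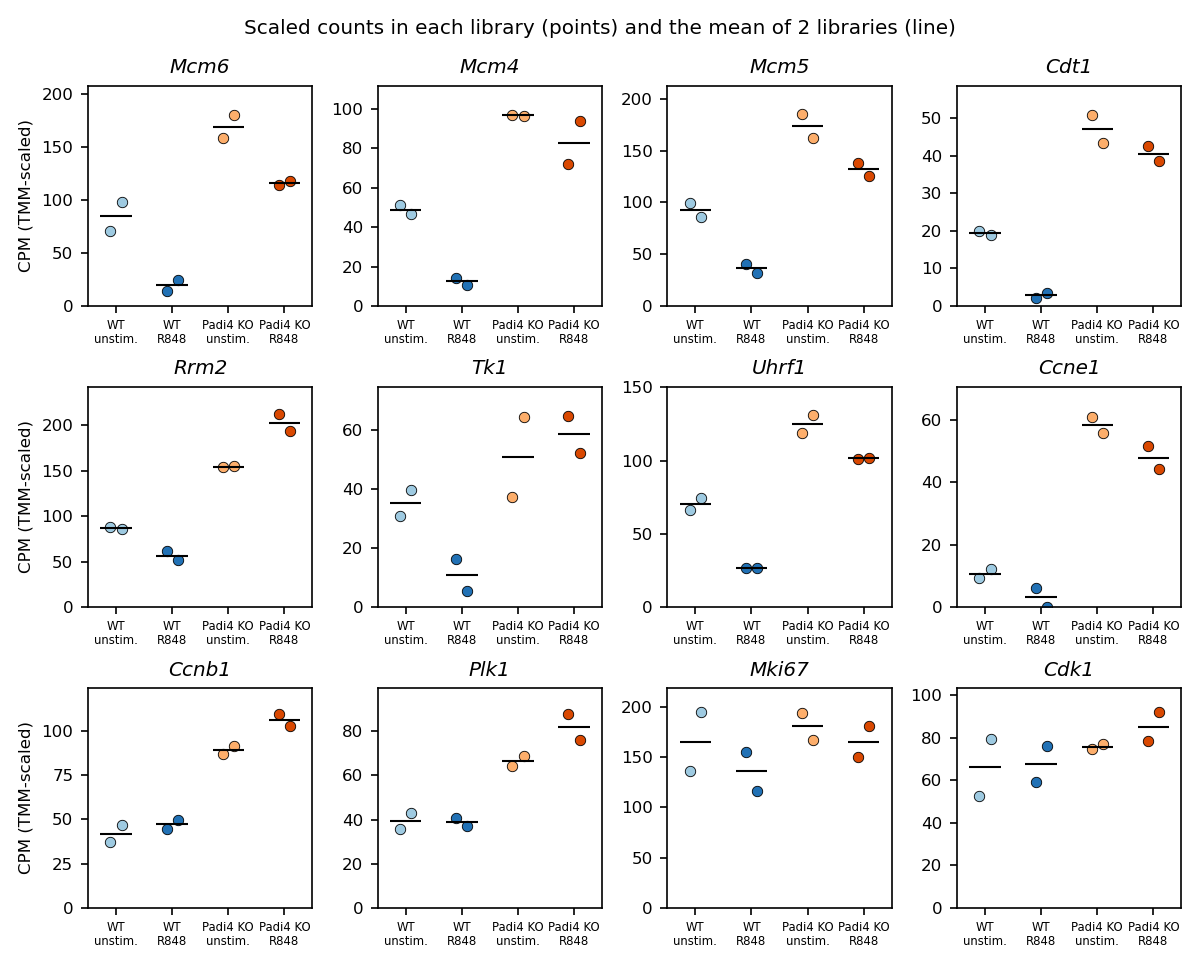
Scaled counts (CPM, vertical axes from 0) of 12 genes in each library (points) with the mean of the 2 libraries of a group (lines). Mcm6, Mcm4, Mcm5, Cdt1, Tk1, Uhrf1 and Ccne1 were lowest in WT after R848, whereas for Ccnb1 and Plk1 the WT libraries of both conditions overlapped, and for Mki67 and Cdk1 the unstimulated libraries of both genotypes overlapped.

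The promoters of these genes were read beside those of mitosis because the medians of these roles differed. RefSeq held a promoter (GRCm38.p6, 250 bases before to 50 after the start) for 40 of the 48 genes. The words searched on both strands were the E2F letters TTTCCCGC, TTTCGCGC, TTTGCCGC and TTTGGCGC, the CHR letters TTTGAA and TTCGAA, and CCAAT. Neighbouring E2F words can overlap. E2F letters were found in 6 of 9 licensing and replication promoters (66.7%) and in 0 of 15 promoters of the mitotic kinase, checkpoint, centromere and spindle genes. They were in 2.32% of all 27025 promoters of this length and in 4.13% of those of the genes tested. CHR letters were found in 12 of the 15 (80%) and in 3 of the 9 (33.3%), and in 19.4% of all promoters. Cdk1, Ccnb1 and Ccnb2, counted elsewhere here among the 20 genes of G2 and mitosis, were not among the 15. Of these, Cdk1 held both E2F and CHR letters, Ccnb2 held CHR letters alone and Ccnb1 held neither. None of the 5 nucleotide promoters held E2F or CHR letters. Only the first listed start of a gene was used, although 4 of the genes had more than 1. Some windows lay inside the gene as placed here, such as that of Dut, from 125247265 in a gene from 125247190. The sequence before the Dut gene was therefore not searched. CCAAT was found in 13 of the 15 (86.7%), in 7 of the 9 (77.8%) and in 37.9% of all promoters, so its shares in these roles were close. The words and the groups compared were chosen after the values were seen, and TTTGCCGC was added after a first search with the other 3 E2F words, which gave 1.91% of all promoters and the same 6 of 9. A match is a description of the letters, not a binding site.

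The promoters of Mcm6 (chr1:128359656-128359955, minus strand) and Mcm5 (chr8:75109259-75109558, plus strand) are shown for the replication genes, and those of Cdc20 (chr4:118437294-118437593, minus strand) and Plk1 (chr7:122159185-122159484, plus strand) for mitosis. Each is written 5′ to 3′ on the strand of its gene, with the E2F, CHR and CCAAT letters of either strand in capitals.
Mcm6: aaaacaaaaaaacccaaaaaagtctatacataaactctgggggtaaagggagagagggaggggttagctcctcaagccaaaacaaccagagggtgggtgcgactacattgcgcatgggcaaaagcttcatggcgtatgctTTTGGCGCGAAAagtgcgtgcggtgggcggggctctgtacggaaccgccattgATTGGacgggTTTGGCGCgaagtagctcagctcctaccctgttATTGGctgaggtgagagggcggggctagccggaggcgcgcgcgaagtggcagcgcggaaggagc
Mcm5: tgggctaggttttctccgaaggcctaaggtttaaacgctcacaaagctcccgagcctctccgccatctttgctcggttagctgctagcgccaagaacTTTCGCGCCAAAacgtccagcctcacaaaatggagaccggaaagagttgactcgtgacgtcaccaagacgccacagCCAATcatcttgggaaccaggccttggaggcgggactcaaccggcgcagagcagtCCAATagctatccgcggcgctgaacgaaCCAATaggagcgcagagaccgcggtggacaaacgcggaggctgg
Cdc20: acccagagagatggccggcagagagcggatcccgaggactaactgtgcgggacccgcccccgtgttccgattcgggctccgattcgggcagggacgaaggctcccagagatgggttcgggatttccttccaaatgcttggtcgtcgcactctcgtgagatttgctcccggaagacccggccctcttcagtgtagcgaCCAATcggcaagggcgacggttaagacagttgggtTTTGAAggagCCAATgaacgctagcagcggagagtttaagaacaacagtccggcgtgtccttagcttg
Plk1: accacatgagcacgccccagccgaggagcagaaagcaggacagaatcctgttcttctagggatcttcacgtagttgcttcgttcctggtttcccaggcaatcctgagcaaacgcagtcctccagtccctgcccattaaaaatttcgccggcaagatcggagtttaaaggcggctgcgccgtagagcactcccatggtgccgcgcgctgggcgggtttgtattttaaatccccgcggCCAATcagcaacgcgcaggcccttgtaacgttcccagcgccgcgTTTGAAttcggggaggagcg
Mcm6 held E2F letters that began 110, 106 and 47 bases before the start, and Mcm5 held overlapping ones at 153 and 149 bases before it. Cdc20 held CHR letters 18 bases before the start, between a pair of CCAAT matches at 53 and 8 bases. Plk1 held CCAAT 14 bases before the start and CHR letters after it.

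The group of cyclins and Cdk1 had 6 genes. Ccna2, cyclin A2, had 71.1 and 74.2 CPM in unstimulated WT, 63.2 and 42.5 CPM in WT after R848, 132 and 107 CPM in unstimulated Padi4 KO and 107 and 118 CPM in Padi4 KO after R848. Ccnb1, cyclin B1, had 37.1 and 46.6 CPM in unstimulated WT, 44.8 and 49.6 CPM in WT after R848, 87.1 and 91.4 CPM in unstimulated Padi4 KO and 109 and 103 CPM in Padi4 KO after R848. Ccnb2, cyclin B2, had 68.0 and 57.0 CPM in unstimulated WT, 57.1 and 51.3 CPM in WT after R848, 82.5 and 84.9 CPM in unstimulated Padi4 KO and 96.0 and 97.4 CPM in Padi4 KO after R848. In these 3 genes the Padi4 KO libraries stood above the WT libraries in both conditions. Cdk1, the kinase that the B-type cyclins activate, had 52.6 and 79.4 CPM in unstimulated WT, 59.1 and 76.1 CPM in WT after R848, 74.6 and 76.9 CPM in unstimulated Padi4 KO and 78.2 and 91.9 CPM in Padi4 KO after R848, and its groups overlapped without stimulation. Ccne1, cyclin E1, which acts at entry into DNA replication, had 6 and 7 counts in unstimulated WT, 3 and 0 in WT after R848, 54 and 77 in unstimulated Padi4 KO and 58 and 48 in Padi4 KO after R848. Its ratio in Padi4 KO to WT after R848 was 16.8 (95% exact counting interval 5.61 to 83.0). Ccne1 was the cyclin that fell in WT, with -1.85 (SE 0.81, edgeR adjusted p = 0.0796). That call was lost in 8 refits, among them DESeq2 (-1.82, adjusted p = 0.27) and edgeR without the second WT library given R848 (-0.68, edgeR adjusted p = 0.689). Ccne2 had between 0 and 10 counts in a library and was not called in edgeR with TMM factors, but was called lower in WT after R848 when counts were scaled by library size alone (-2.68, edgeR adjusted p = 0.0952).

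Of the 9 mitotic kinase, checkpoint and ubiquitin ligase genes, 0 passed the threshold in WT after R848 in edgeR and in DESeq2. Of all genes, 10.8% were called lower and 7.17% higher in edgeR. At an unadjusted p under 0.05 in edgeR there were 3 of the 9, close to the 33.1% of all genes. Ube2c, the ubiquitin-conjugating enzyme of the anaphase-promoting complex, had 77.3 and 116 CPM in unstimulated WT, 93.8 and 93.8 CPM in WT after R848, 97.2 and 119 CPM in unstimulated Padi4 KO and 125 and 107 CPM in Padi4 KO after R848. Bub1b, a spindle checkpoint kinase, had 52.6 and 82.9 CPM in unstimulated WT, 53.0 and 62.0 CPM in WT after R848, 88.2 and 79.8 CPM in unstimulated Padi4 KO and 92.4 and 86.4 CPM in Padi4 KO after R848. Cdc20, an activator of that complex, had 58.7 and 43.2 CPM in unstimulated WT, 57.1 and 54.9 CPM in WT after R848, 65.6 and 74.7 CPM in unstimulated Padi4 KO and 96.0 and 94.7 CPM in Padi4 KO after R848. Cdc20 was higher in each Padi4 KO library than in any WT library of the same condition, whereas Ube2c and Bub1b overlapped without stimulation. Cdca8, borealin of the chromosomal passenger complex, had 40.2 and 57.0 CPM in unstimulated WT, 46.9 and 40.7 CPM in WT after R848, 81.4 and 78.4 CPM in unstimulated Padi4 KO and 87.1 and 83.6 CPM in Padi4 KO after R848. Plk1 had 35.6 and 43.2 CPM in unstimulated WT, 40.8 and 37.2 CPM in WT after R848, 64.4 and 68.9 CPM in unstimulated Padi4 KO and 88.0 and 76.3 CPM in Padi4 KO after R848, with the WT libraries below the Padi4 KO ones in both conditions. Aurkb, a mitotic kinase, had 4 and 19 counts in the WT libraries given R848, which lay far apart. Aurkb was at 0.01 without the first of them (edgeR adjusted p = 1), was called lower without the second (-2.05, edgeR adjusted p = 0.00575) and was called lower with library size alone (-1.05, edgeR adjusted p = 0.0156). Aurka, another mitotic kinase, was called higher without the second (1.02, edgeR adjusted p = 0.0686).

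Of the 8 centromere, spindle and cytokinesis genes, Kif11 and Kif23 fell in WT after R848, with -1.14 (SE 0.26, edgeR adjusted p = 9.68e-05) and -1.48 (SE 0.28, edgeR adjusted p = 1.26e-06). Kif11 was under the fold threshold without the second unstimulated WT library (-0.93) or the first WT library given R848 (-0.81). Kif11, a spindle motor, had 74.2 and 98.4 CPM in unstimulated WT, 32.6 and 44.3 CPM in WT after R848, 79.1 and 77.6 CPM in unstimulated Padi4 KO and 70.2 and 63.4 CPM in Padi4 KO after R848. Tpx2, which activates Aurka on the spindle, had 89.7 and 76.0 CPM in unstimulated WT, 63.2 and 74.4 CPM in WT after R848, 96.1 and 110.3 CPM in unstimulated Padi4 KO and 88.8 and 108 CPM in Padi4 KO after R848. Kif11 was lowest in WT after R848, and its unstimulated groups overlapped. Cenpa, the histone H3 variant of centromeres, had 64.9 and 95.0 CPM in unstimulated WT, 53.0 and 39.0 CPM in WT after R848, 92.7 and 88.5 CPM in unstimulated Padi4 KO and 101 and 86.4 CPM in Padi4 KO after R848. Prc1, a midzone protein, had 38.7 and 77.7 CPM in unstimulated WT, 53.0 and 39.0 CPM in WT after R848, 78.0 and 68.9 CPM in unstimulated Padi4 KO and 77.3 and 80.0 CPM in Padi4 KO after R848. After R848 the Padi4 KO libraries stood above WT for Kif11, Tpx2, Cenpa and Prc1. Cenpf had between 8 and 15 counts and Cenpe between 8 and 24, and neither passed a test.

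Of the remaining genes, Hmgb2, a chromatin protein, had 1090 and 993 CPM in unstimulated WT, 611 and 575 CPM in WT after R848, 972 and 874 CPM in unstimulated Padi4 KO and 646 and 589 CPM in Padi4 KO after R848. Per kilobase of exon it was the most abundant of the 48 genes, at a mean of 347 CPM per kb in unstimulated WT, followed by Tuba1b at 108 and Stmn1 at 68.4 CPM per kb. Tuba1b, an alpha tubulin, had 213 and 192 CPM in unstimulated WT, 130.4 and 127 CPM in WT after R848, 356 and 372 CPM in unstimulated Padi4 KO and 238 and 221 CPM in Padi4 KO after R848, but 66.7% of its 50-base words also occur in other genes, Tuba1c among them, so its counts are uncertain. Top2a, topoisomerase II alpha, had 223 and 288 CPM in unstimulated WT, 171 and 170.0 CPM in WT after R848, 286 and 262 CPM in unstimulated Padi4 KO and 223 and 216 CPM in Padi4 KO after R848. Mki67, the proliferation marker Ki-67, had 136 and 195 CPM in unstimulated WT, 155 and 117 CPM in WT after R848, 194 and 167 CPM in unstimulated Padi4 KO and 150.1 and 181 CPM in Padi4 KO after R848. The Mki67 libraries overlapped between genotypes in both conditions. Stmn1, which binds tubulin, was the gene of this group that fell in WT, with -1.68 (SE 0.23, edgeR adjusted p = 1.29e-11).

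The 4 regulators differed among themselves. Dnmt1, the maintenance DNA methyltransferase, had 114 and 129 CPM in unstimulated WT, 65.2 and 49.6 CPM in WT after R848, 179.8 and 209 CPM in unstimulated Padi4 KO and 117 and 129 CPM in Padi4 KO after R848. Uhrf1, which recruits Dnmt1, had 66.5 and 74.2 CPM in unstimulated WT, 26.5 and 26.6 CPM in WT after R848, 119 and 131 CPM in unstimulated Padi4 KO and 101 and 102 CPM in Padi4 KO after R848. Both fell in WT after R848, with -1.09 (SE 0.22, edgeR adjusted p = 5.41e-06) and -1.40 (SE 0.30, edgeR adjusted p = 2.59e-05). Dnmt1 was close to the 2-fold threshold and under it in 5 refits, at -0.80 without the second WT library given R848. Foxm1, a transcription factor of the mitotic genes, had 64.9 and 62.2 CPM in unstimulated WT, 38.7 and 30.1 CPM in WT after R848, 62.2 and 52.2 CPM in unstimulated Padi4 KO and 39.1 and 42.3 CPM in Padi4 KO after R848. E2f1 had 20.1 and 6.91 CPM in unstimulated WT, 14.3 and 15.9 CPM in WT after R848, 23.7 and 26.8 CPM in unstimulated Padi4 KO and 14.2 and 23.0 CPM in Padi4 KO after R848. Foxm1 passed the false discovery rate but not the fold threshold in the response of WT (-0.90, edgeR adjusted p = 0.00943) and of Padi4 KO (-0.47, edgeR adjusted p = 0.069), and it was called lower in WT when counts were scaled by library size alone (-1.20, edgeR adjusted p = 0.000179). The 2 unstimulated WT libraries of E2f1 lay far apart.

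In Padi4 KO, 0 of the 48 genes passed the threshold of the R848 response in edgeR, where 8.07% of all genes were called higher and 8.84% lower. At an unadjusted p under 0.05 there were 21 in edgeR, beside 37.3% of all genes. DESeq2 also called 0, with 11 at an unadjusted p under 0.05, beside 21.3% of all genes. These counts lie near the shares of all genes. By the false discovery rate alone 16 were lower and 3 higher in edgeR, where 4299 of all 12254 genes passed it. The 3 were Aurka with 0.73 (SE 0.19, edgeR adjusted p = 0.00106), Rrm2 with 0.39 (SE 0.12, edgeR adjusted p = 0.00446) and Cdc20 with 0.42 (SE 0.16, edgeR adjusted p = 0.031). Such rises varied with the test and the processing. Genes above 0 at an unadjusted p under 0.05 were 4 of the 48 in edgeR with TMM factors and 3 with RLE factors. They were 0 in DESeq2, which is another test, and 0 in edgeR with library size alone. Rrm2 was at -0.01 after thinning every library to the smallest. The largest fold changes below 0 were those of Tyms at -0.87 (SE 0.27, edgeR adjusted p = 0.00505) and Dut at -0.80 (SE 0.18, edgeR adjusted p = 0.000102). The median over the 48 genes was -0.17, beside -0.03 over all genes. When counts were scaled by library size alone, 7 of the 48 were called lower. Of all 12254 genes, 2072 were called lower with that scaling, and their median was -0.41 over all genes.

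**Figure D3:**
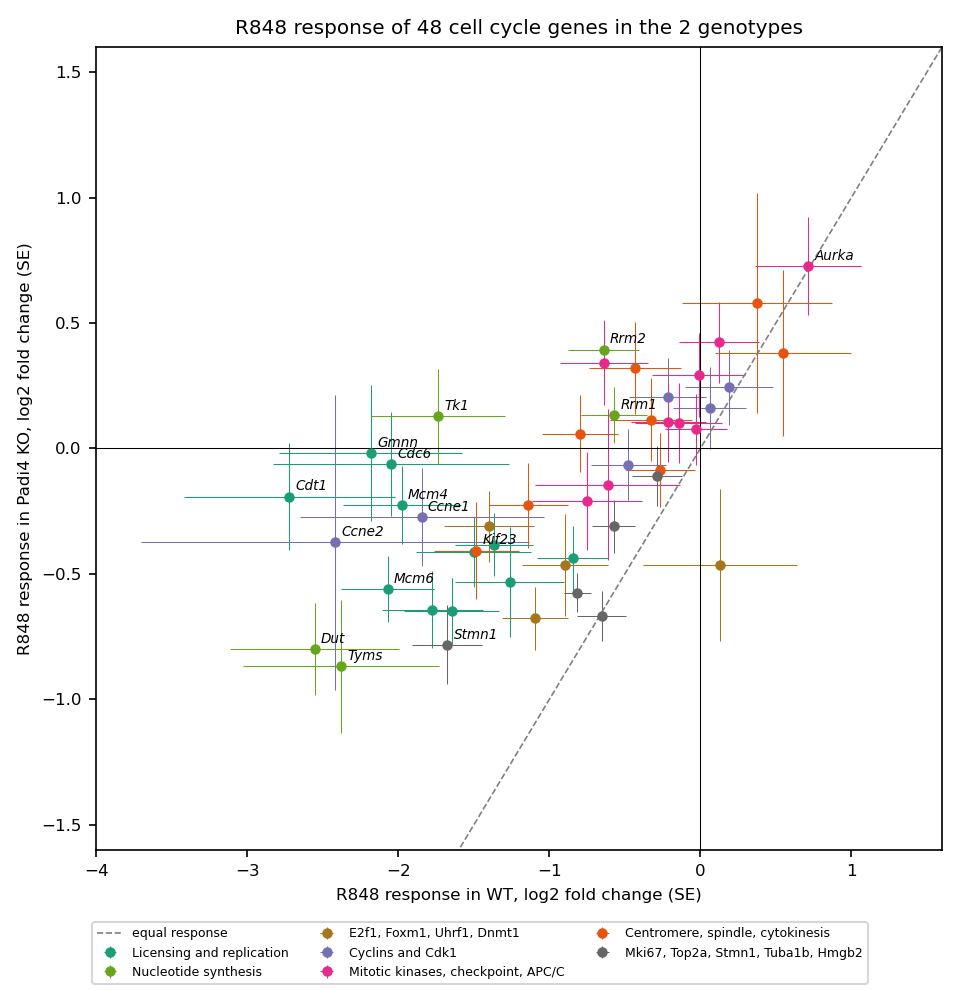
R848 response of the 48 genes in WT (horizontal) and in Padi4 KO (vertical), as log2 fold changes with SE bars and colours by role; the dashed line marks equal responses. All 11 licensing and replication genes lie to the left of 0 and above the line.

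The difference between the 2 responses was tested for each gene. In Padi4 KO minus WT, 16 of the 48 genes (33.3%) passed a false discovery rate of 0.1 with a higher response and 0 with a lower one, whereas 3.45% of all genes were called higher and 1.26% lower. The 16 included 7 of the 11 licensing and replication genes and 3 of the 5 nucleotide genes. They were Mcm6 with a difference of 1.51 (SE 0.34, edgeR adjusted p = 0.00126), Mcm4 with 1.75 (SE 0.43, edgeR adjusted p = 0.00374), Mcm5 with 0.98 (SE 0.29, edgeR adjusted p = 0.0326), Mcm3 with 1.13 (SE 0.38, edgeR adjusted p = 0.0773) and Mcm7 with 1.00 (SE 0.35, edgeR adjusted p = 0.0957). Cdt1 differed by 2.53 (SE 0.75, edgeR adjusted p = 0.0299) and Gmnn by 2.16 (SE 0.67, edgeR adjusted p = 0.0438), both on few WT counts. Of the nucleotide genes, Rrm2 differed by 1.03 (SE 0.26, edgeR adjusted p = 0.00611), Tk1 by 1.86 (SE 0.48, edgeR adjusted p = 0.00761) and Rrm1 by 0.70 (SE 0.25, edgeR adjusted p = 0.0924). The others were Uhrf1 with 1.09 (SE 0.34, edgeR adjusted p = 0.0402), Kif23 with 1.08 (SE 0.35, edgeR adjusted p = 0.0593), Stmn1 with 0.89 (SE 0.29, edgeR adjusted p = 0.0633), Kif11 with 0.91 (SE 0.31, edgeR adjusted p = 0.0849), Birc5 (survivin) with 0.98 (SE 0.34, edgeR adjusted p = 0.0854) and Cenpa with 0.86 (SE 0.30, edgeR adjusted p = 0.0907). None of the 6 cyclins and Cdk1 was called.

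These calls depended on the test and the scaling. DESeq2 called 0 of the 48 differences, where it called 16 of all 12254 genes higher and 63 lower. It had 8 of the 48 at an unadjusted p under 0.05, beside 4.15% of all genes. RLE factors in edgeR left 6, and thinning every library to the smallest left 1. Leaving out a library left between 1 and 11 calls, the fewest without the second WT library given R848. Over all genes, edgeR called 423 differences higher and 154 lower with TMM factors, and 160 higher and 233 lower with RLE factors. The median difference of the 48 genes was 0.62 with TMM and 0.47 with RLE factors. Relative to the median of genes with at least 10 counts, which was 0.18 with TMM and 0.02 with RLE factors, it was 0.44 with either.

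Without stimulation, Padi4 KO had 25 of the 48 genes (52.1%) higher and 1 lower than WT, with a false discovery rate under 0.1 as the threshold. Of all genes, 9.55% were called higher and 14.4% lower. The 25 were 9 of the 11 licensing and replication genes, all 5 nucleotide genes, 3 cyclins, 4 of the 9 mitotic kinase and checkpoint genes, 3 regulators and Tuba1b, and 0 of the 8 centromere and spindle genes, where Kif23, at -0.44, alone had an unadjusted p under 0.05. Mcm2 was higher by a log2 fold change of 1.64 (SE 0.20, edgeR adjusted p = 2.85e-14), Mcm7 by 1.30 (SE 0.17, edgeR adjusted p = 3.74e-12), Mcm6 by 1.03 (SE 0.16, edgeR adjusted p = 1.16e-08), Mcm5 by 0.89 (SE 0.16, edgeR adjusted p = 5.71e-07) and Pcna by 0.82 (SE 0.16, edgeR adjusted p = 6.51e-06). Ccne1 had the largest difference, 2.43 (SE 0.34, edgeR adjusted p = 6.87e-11), followed by Cdc6 with 1.95 (SE 0.34, edgeR adjusted p = 4.21e-07). Dut was higher by 1.46 (SE 0.25, edgeR adjusted p = 1.1e-07), Rrm1 by 1.09 (SE 0.15, edgeR adjusted p = 4e-11) and Tuba1b by 0.85 (SE 0.12, edgeR adjusted p = 3.39e-11). Hmgb2 was lower by -0.18 (SE 0.08, edgeR adjusted p = 0.0996) and changed sign, to 0.11, when counts were scaled by library size alone. The calls of Tk1 and Tyms were lost without the second unstimulated Padi4 KO library, at 0.10 (edgeR adjusted p = 0.941) and 0.83 (edgeR adjusted p = 0.16), and in DESeq2, which also called 0 of the 4 mitotic kinase and checkpoint genes (Aurka, Aurkb, Plk1 and Cdca8) and not E2f1, and 18 of the 26 calls held under every refit. The median of the 48 genes was 0.62, beside -0.03 over all genes tested.

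After R848, 37 of the 48 genes (77.1%) were higher in Padi4 KO and 0 lower, beside 9.46% of all genes higher and 7.81% lower. All 11 licensing and replication genes and all 5 nucleotide genes were higher, with medians of 2.50 and 2.44, although Cdc45 lost its call in 9 refits, at 0.43 (edgeR adjusted p = 0.652) without the first Padi4 KO library given R848. Of the 37 calls, 22 held under every refit. Rrm1 was higher by 1.79 (SE 0.17, edgeR adjusted p = 3.05e-23), Rrm2 by 1.86 (SE 0.18, edgeR adjusted p = 4.11e-22), Mcm6 by 2.54 (SE 0.26, edgeR adjusted p = 1.15e-19), Mcm2 by 2.73 (SE 0.29, edgeR adjusted p = 9.34e-19), Mcm7 by 2.29 (SE 0.26, edgeR adjusted p = 2.92e-16), Mcm4 by 2.73 (SE 0.32, edgeR adjusted p = 1.6e-15), Mcm5 by 1.87 (SE 0.22, edgeR adjusted p = 3.62e-15) and Uhrf1 by 1.93 (SE 0.25, edgeR adjusted p = 1.81e-12). Of the 20 genes of G2 and mitosis 14 were higher, with a median of 0.78 and smaller values, such as Plk1 with 1.08 (SE 0.24, edgeR adjusted p = 0.000125) and Ccnb1 with 1.16 (SE 0.22, edgeR adjusted p = 2.33e-06). The largest differences were those of Ccne1 at 4.01 (SE 0.52, edgeR adjusted p = 9.22e-13) and Cdc6 at 3.94 (SE 0.52, edgeR adjusted p = 5.16e-12). Both rested on 3 counts or fewer in each WT library given R848. The genes not called were Mki67, Cdk1, Ccne2, Bub1, Cenpe, Cenpf, Kif23, Ube2c, Hmgb2, E2f1 and Foxm1. With library size alone Mki67, Cdk1, Kif23, Ube2c and Hmgb2 were called higher. DESeq2 called 24 of the 48 higher, among them 4 of the 20 genes of G2 and mitosis. The unstimulated and R848 comparisons share no library, but the R848 responses and the differences share libraries with both.

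**Figure D4:**
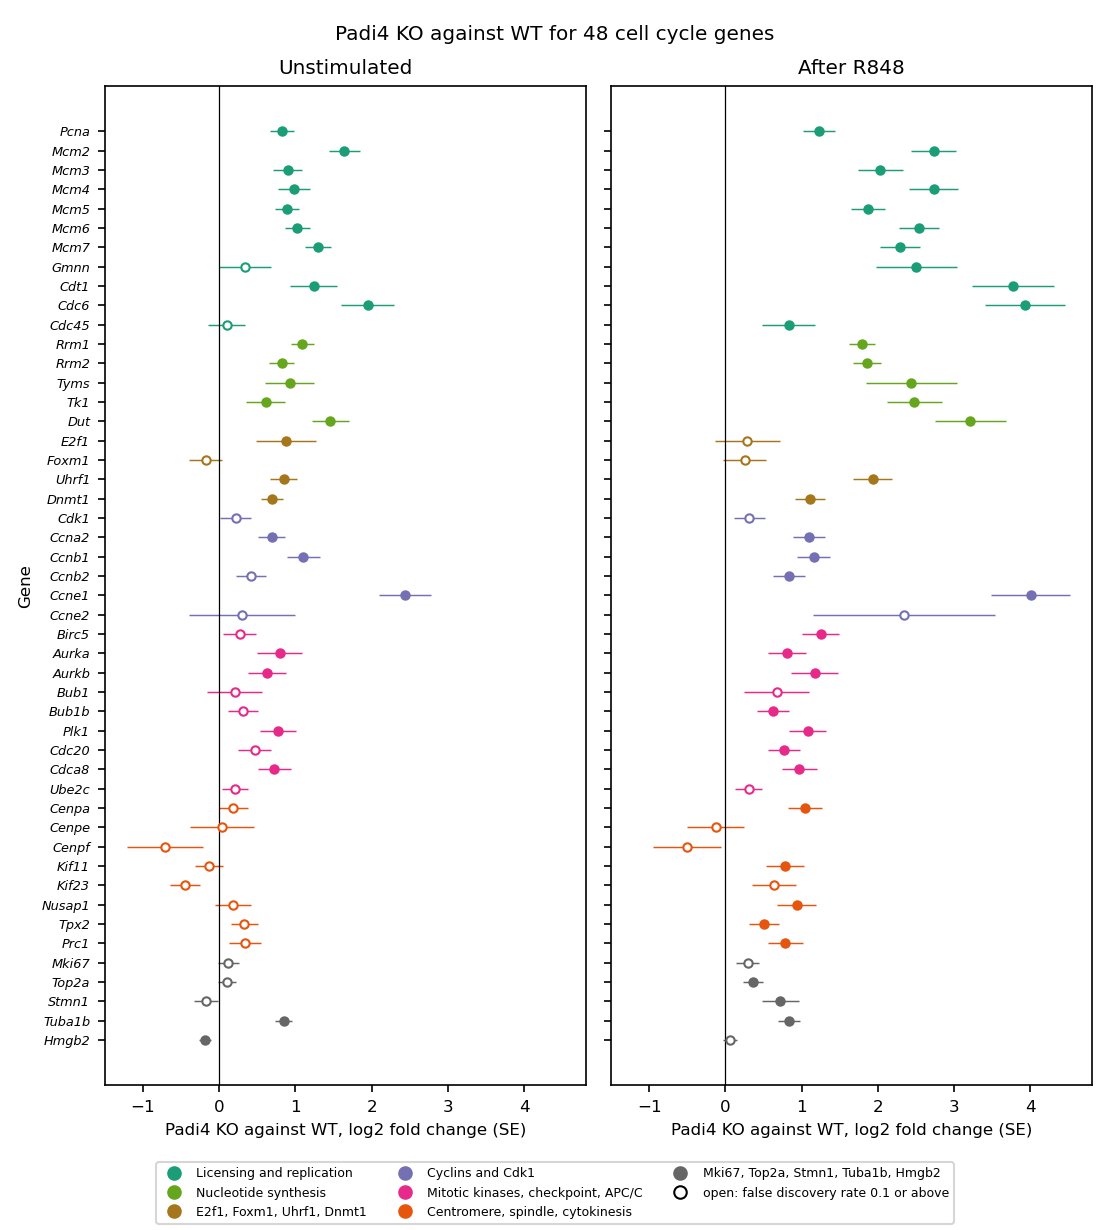
Padi4 KO against WT for the 48 genes as log2 fold changes (horizontal, points with SE bars), unstimulated (left) and after R848 (right), with colours by role. Filled points passed a false discovery rate of 0.1, in 26 genes on the left and 37 on the right.

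Mcm2 to Mcm7 together had 399 and 401 CPM in unstimulated WT, 141 and 108 CPM in WT after R848, 866 and 856 CPM in unstimulated Padi4 KO and 615 and 613 CPM in Padi4 KO after R848. The 20 genes of G2 and mitosis together had 991 and 1159, 856 and 887, 1327 and 1337, and 1488 and 1436 CPM in the same order. The ratio of Mcm counts to G2 and mitosis counts inside a library, which no scaling between libraries changes, was 0.403 and 0.346 in unstimulated WT, 0.164 and 0.122 in WT after R848, 0.653 and 0.640 in unstimulated Padi4 KO and 0.413 and 0.427 in Padi4 KO after R848. The ratio was lower after R848 in both genotypes and higher in Padi4 KO in both conditions, and the groups did not overlap. It was chosen after the values were seen and is given without a test.

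**Figure D5:**
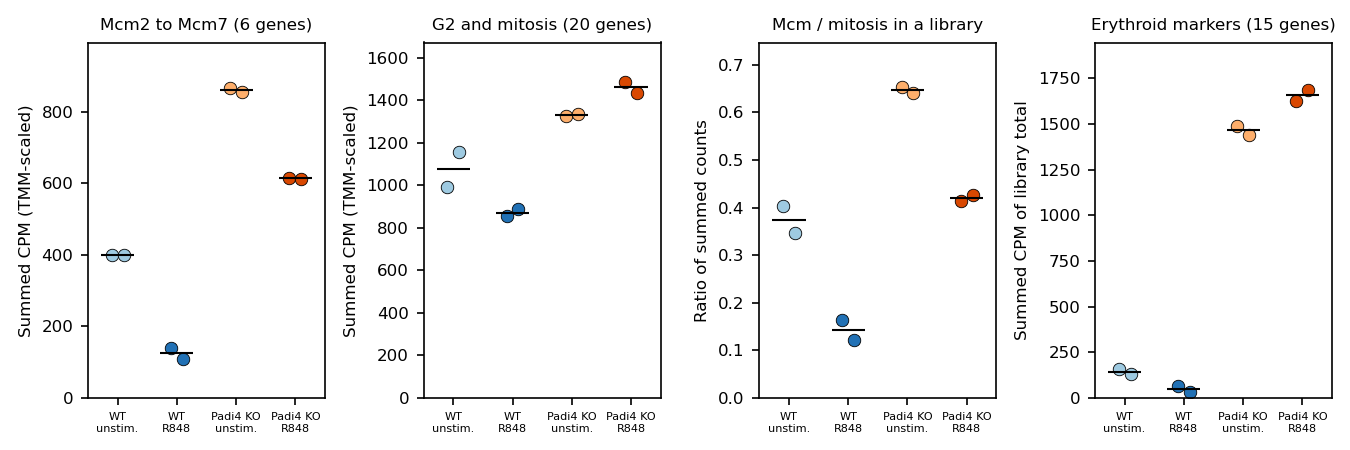
Summed scaled counts of Mcm2 to Mcm7 and of 20 G2 and mitosis genes, the ratio of their counts in a library, and the summed CPM of 15 erythroid markers, in each library (points) with the group mean (lines). The Mcm sum and the ratio are lowest in WT after R848, and the erythroid sum is between 1441 and 1686 CPM in the Padi4 KO libraries, against 32.9 to 158 CPM in WT.

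A further 140 cell cycle genes outside the 48 were counted, of which 139 were tested. In WT after R848, 34 of the 139 (24.5%) fell and 5 (3.6%) rose, beside 10.8% and 7.17% of all genes. The smallest p belonged to Btg2, an antiproliferative gene, which rose with 1.70 (SE 0.10, edgeR adjusted p = 1.97e-57), Tfdp1, the E2F partner, which fell with -2.28 (SE 0.16, edgeR adjusted p = 5.86e-42), Gadd45b, a stress gene, which rose with 2.63 (SE 0.20, edgeR adjusted p = 2.64e-38), Tubb5 at -1.22 (SE 0.14, edgeR adjusted p = 3.11e-16) and Tuba1c at 1.01 (SE 0.19, edgeR adjusted p = 1.12e-06). In Padi4 KO, 10 (7.19%) fell and 3 (2.16%) rose, beside 8.84% and 8.07% of all genes. They were led by Gadd45b at 3.66 (SE 0.18, edgeR adjusted p = 3.55e-93), Tfdp1 at -1.65 (SE 0.12, edgeR adjusted p = 1.85e-38), Btg2 at 1.27 (SE 0.10, edgeR adjusted p = 3.34e-38), Hmgn2 at -1.01 (SE 0.09, edgeR adjusted p = 2.44e-27) and Gadd45g at -1.39 (SE 0.30, edgeR adjusted p = 2.33e-05).

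The response differed for 15 of the 139, 12 higher (8.63%) and 3 lower (2.16%) in Padi4 KO, beside 3.45% and 1.26% of all genes. Lmnb1, a lamin, differed by -1.61 (SE 0.16, edgeR adjusted p = 4.54e-20), Dlgap5, a spindle protein, by 1.94 (SE 0.48, edgeR adjusted p = 0.004), Tubb5 by 0.70 (SE 0.17, edgeR adjusted p = 0.00422), Ncapd2, a condensin subunit, by 0.93 (SE 0.24, edgeR adjusted p = 0.0091) and Rbl2, a pocket protein, by 1.01 (SE 0.30, edgeR adjusted p = 0.029). Without stimulation 31 (22.3%) were higher and 8 (5.76%) lower in Padi4 KO, beside 9.55% and 14.4% of all genes. Among them were Hmgn2, a nucleosome-binding protein, at -0.88 (SE 0.08, edgeR adjusted p = 7.19e-24), Ran, a small GTPase, at 1.22 (SE 0.15, edgeR adjusted p = 2.97e-14), Tubb5 at 0.67 (SE 0.10, edgeR adjusted p = 2.07e-09), E2f4, an E2F repressor, at 1.31 (SE 0.21, edgeR adjusted p = 2.9e-08) and Cdk4, a kinase of the D-type cyclins, at 1.46 (SE 0.24, edgeR adjusted p = 3e-08). After R848, 56 (40.3%) were higher and 6 (4.32%) lower, beside 9.46% and 7.81% of all genes. Among them were Tubb5 at 1.37 (SE 0.13, edgeR adjusted p = 8.16e-23), Hmgn2 at -0.92 (SE 0.10, edgeR adjusted p = 1.13e-17), Btg2 at -0.77 (SE 0.09, edgeR adjusted p = 3e-16), Lmnb1 at -1.01 (SE 0.12, edgeR adjusted p = 4.64e-16) and Ncapd2 at 1.37 (SE 0.18, edgeR adjusted p = 1.89e-12). Of the 25 further replication genes, 14 fell in WT after R848 and 20 were higher in Padi4 KO than in WT after R848.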

How the data were processed

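RNA of bone marrow neutrophils was sequenced in 8 libraries. As the labels and methods state, the authors trimmed reads with cutadapt 1.16, filtered them, mapped them to mm10 with STAR 2.5.3a and counted them per gene with HTSeq 0.6.1p1; the deposited values are raw counts. The strand setting and annotation are not given in the sources used here, so genes that overlap others or share sequence with copies are uncertain. Among them are Tuba1b, Ccnb1, Pcna, Ube2c, Mcm7, Stmn1, Hmgb2, Uhrf1, Ccne2 and Ccna2. HTSeq's summary lines, between 10.6% and 13.0% of each library, were left out.

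Genes with at least 1 count in at least 2 libraries were tested in edgeR 4.0.16 (R 4.3.3) with TMM factors, a mean for each group and the robust quasi-likelihood test, with Benjamini-Hochberg adjustment over 12254 genes. The threshold was a false discovery rate under 0.1, and for responses also a change of over 2-fold. The SE is the absolute log2 fold change over the square root of F. DESeq2 1.42.0 was an alternative. The code was tested on simulated data. Low-count ratios pool the 2 libraries of a group and have exact conditional binomial intervals. Gene positions are from GENCODE vM21 and promoters from RefSeq GRCm38.p6.

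The 48 genes, the other lists and the tests were chosen with earlier results of these data known. In each role group the 4 genes with the highest mean count were named with every library, in each contrast up to 10 called genes with the smallest p, all genes whose response differed, and the 5 further cell cycle genes with the smallest p. Other genes were named after their values were seen.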

Additional observations from a re-analysis of the deposited data

Results flagged for a closer look

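The R848 response differed between Padi4 KO and WT for 16 of the 48 genes, by the test of the difference itself in edgeR at a false discovery rate below 0.1. The log2 differences, Padi4 KO minus WT, were Mcm6 1.51, Mcm4 1.75, Rrm2 1.03, Tk1 1.86, Cdt1 2.53, Mcm5 0.98, Uhrf1 1.09, Gmnn 2.16, Kif23 1.08, Stmn1 0.89, Mcm3 1.13, Kif11 0.91, Birc5 0.98, Cenpa 0.86, Rrm1 0.70 and Mcm7 1.00. All 16 were positive. None of the 16 kept its call under every refit. DESeq2 called none of the 48, where it called 16 of all 12254 genes higher and 63 lower. It had 8 of the 48 at an unadjusted p under 0.05, beside 4.15% of all genes.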

How the results depend on the processing

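In the WT response between 15 and 27 of the 48 genes were lower under the alternatives, beside 19. Leaving out a library gave 0 to 1 higher and 15 to 19 lower genes, and medians from -0.76 to -0.67, beside -0.77; the median was -1.08 with library size alone, -0.60 after thinning and -0.65 with the 4 libraries of the contrast. In the Padi4 KO response, the 0 higher and 0 lower genes became 3 and 16 at a false discovery rate of 0.1 alone, 7 lower with library size alone and 1 lower after thinning, and 0 to 1 lower without a library. Its median of -0.17 was -0.28 with DESeq2, -0.25 with RLE factors, -0.54 with library size alone and -0.24 after thinning. Without a library it was -0.30 to -0.16. In this response 4299 of all 12254 genes passed the false discovery rate of 0.1, and library size alone called 2072 lower.

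The 16 differences of response became 0 with DESeq2, 6 with RLE factors, 8 with library size alone, 1 after thinning, 8 at a false discovery rate of 0.05 and 9 with a 2-fold threshold, and 1 to 11 without a library. The median of the 48 genes, 0.62, was 0.48 with DESeq2, 0.47 with RLE factors and 0.43 after thinning. Without a library it was 0.29 to 0.78. Of all 12254 genes, DESeq2 called 16 higher and 63 lower in this contrast.

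Unstimulated, the 25 higher genes became 9 with a 2-fold threshold, 18 with DESeq2, 36 with library size alone and 20 to 31 without a library. The lower gene, Hmgb2, became 0 lower genes with DESeq2, RLE factors, library size alone, no filter, thinning, the 4 libraries of the contrast, a false discovery rate of 0.05 or a 2-fold threshold, 2 with filterByExpr, and 0 to 1 without a library; its log2 value was 0.11 with library size alone. The median of 0.62 was 0.91 with library size alone and 0.77 with the 4 libraries, and 0.57 to 0.77 without a library. After R848, the 37 higher genes became 24 with DESeq2 and 24 with a 2-fold threshold, and 28 to 37 without a library. The median of 1.06 was 0.96 with DESeq2, 0.96 with RLE factors, 1.27 with library size alone and 0.92 after thinning, and 0.85 to 1.06 without a library. The cause of these shifts was not tested.

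Replicate numbers did not pair the libraries: deviations of same-numbered libraries correlated between -0.020 and 0.020. With the number as a replicate block, 17 differences, 24 higher and 1 lower unstimulated gene and 36 higher genes after R848 were called. A library left out leaves its group with 1 library, whose spread is assumed to be that of the others. With 3 counts as a floor, 7 of the 48 genes were at or under it in both WT libraries given R848.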
